A study of Mus musculus with 24 samples.

Results

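The collagen genes of the neonatal mouse cerebellum were examined after ethanol exposure. They were taken by name, as every row whose symbol reads Col, a number, the letter a and a number, a rule that reads no measured value. The rule found 44 of 55416 gene rows. Of these, 43 had enough counts to be tested among 17736 genes, and only Col10a1, whose product is laid down by hypertrophic cartilage, did not, with a mean of 0.124 CPM in Ethanol and 0.160 CPM in Control animals (CPM, counts scaled to a common library size).

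Poly(A) RNA was sequenced from 12 Ethanol and 12 Control animals, all C57BL/6J mice. Ethanol animals received ethanol at 4 g/kg/day in intralipid by gavage from P4, and Control animals received intralipid with water in place of the ethanol. Tissue was taken from perfused animals at P5 or P6. By the study's methods, animals taken at P5 were dosed on P4 only, and those taken at P6 on P4 and P5. The labels give neither age, sex nor litter, so each value covers both ages, both dosing schedules and both sexes. The labels name the tissue only as brain and the study's methods name it as cerebellum. Markers of granule neurons and their precursors, of Purkinje cells, and of astrocytes with Bergmann glia were abundant in all libraries. Their summed levels were at least 2757 CPM, 1493 CPM and 3947 CPM. The last list is not limited to Bergmann glia.

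Collagens are extracellular proteins made of chains wound into a triple helix. Each chain is hydroxylated and folded in the endoplasmic reticulum, exported by enlarged carriers, and in the fibrillar types trimmed and cross-linked outside the cell. In brain, fibrillar collagens lie mainly in the meninges and around larger vessels, where fibroblasts make them, and type IV collagen forms the network of the basement membrane that endothelial cells, pericytes and astrocyte endfeet share. Other types sit on fibril surfaces, span the cell membrane or carry domains that are released after cleavage.

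Libraries held 26982564 to 38804942 counts in Ethanol and 29039888 to 38696615 counts in Control animals. Collagen genes took 0.194% to 0.250% of the counts in Ethanol (median 0.229%) and 0.208% to 0.279% in Control animals (median 0.259%). Some libraries stood apart by the level of 1 gene. In 2 Ethanol and 2 Control libraries the choroid plexus marker Ttr (transthyretin) was at 1.15 to 3.57 CPM, against 322 to 5049 CPM in the other 20. These 4 are called low-Ttr libraries, and results are also given without them. Sorted by animal number, the libraries make 6 sets of 4, called runs here, with 2 animals of each treatment in each. Numbers within a run are not all adjacent. By the study's methods each litter gave a male and a female of each treatment, so a run has the makeup of a litter. No source ties an animal number to a litter, and whether runs are litters was not tested. Values with runs as a block in the fit are given where they change the call of a collagen gene.

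Collagen transcripts were lower in sum in Ethanol animals. The 44 genes together reached 1931 to 2477 CPM (median 2285) in Ethanol and 2080 to 2767 CPM (median 2582) in Control animals. All 12 Ethanol animals lay below the Control median, though the ranges overlapped. Of 43 genes tested with edgeR's quasi-likelihood test and Benjamini-Hochberg adjustment over all genes, 8 were lower and 2 higher in Ethanol animals at adjusted p under 0.05, and 33 did not pass. Among all 17736 genes, 5.80% were called lower and 9.07% higher. The lower genes were Col1a1, Col2a1, Col3a1 and Col5a2 among fibrillar chains, Col4a1 and Col4a2 of the basement membrane, and Col15a1 and Col18a1. The higher genes were Col7a1 and Col4a6. In bulk tissue a lower level can mean fewer cells of a type or less RNA per cell, and these cannot be told apart.

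The fitted log2 fold change (Ethanol over Control) was negative for 30 of 43 genes, and its median was -0.11. Over all genes tested the median was -0.0057 and 52.3% were negative. Without the 4 low-Ttr libraries, 9 collagen genes were lower and 1 was higher, where 3.44% of all genes were called lower and 6.79% higher. Of the 10 calls, 9 were made again in the same direction, and 42 of 43 genes had the same sign. The smaller set added Col13a1 and lost Col4a6.

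**Figure D1:**
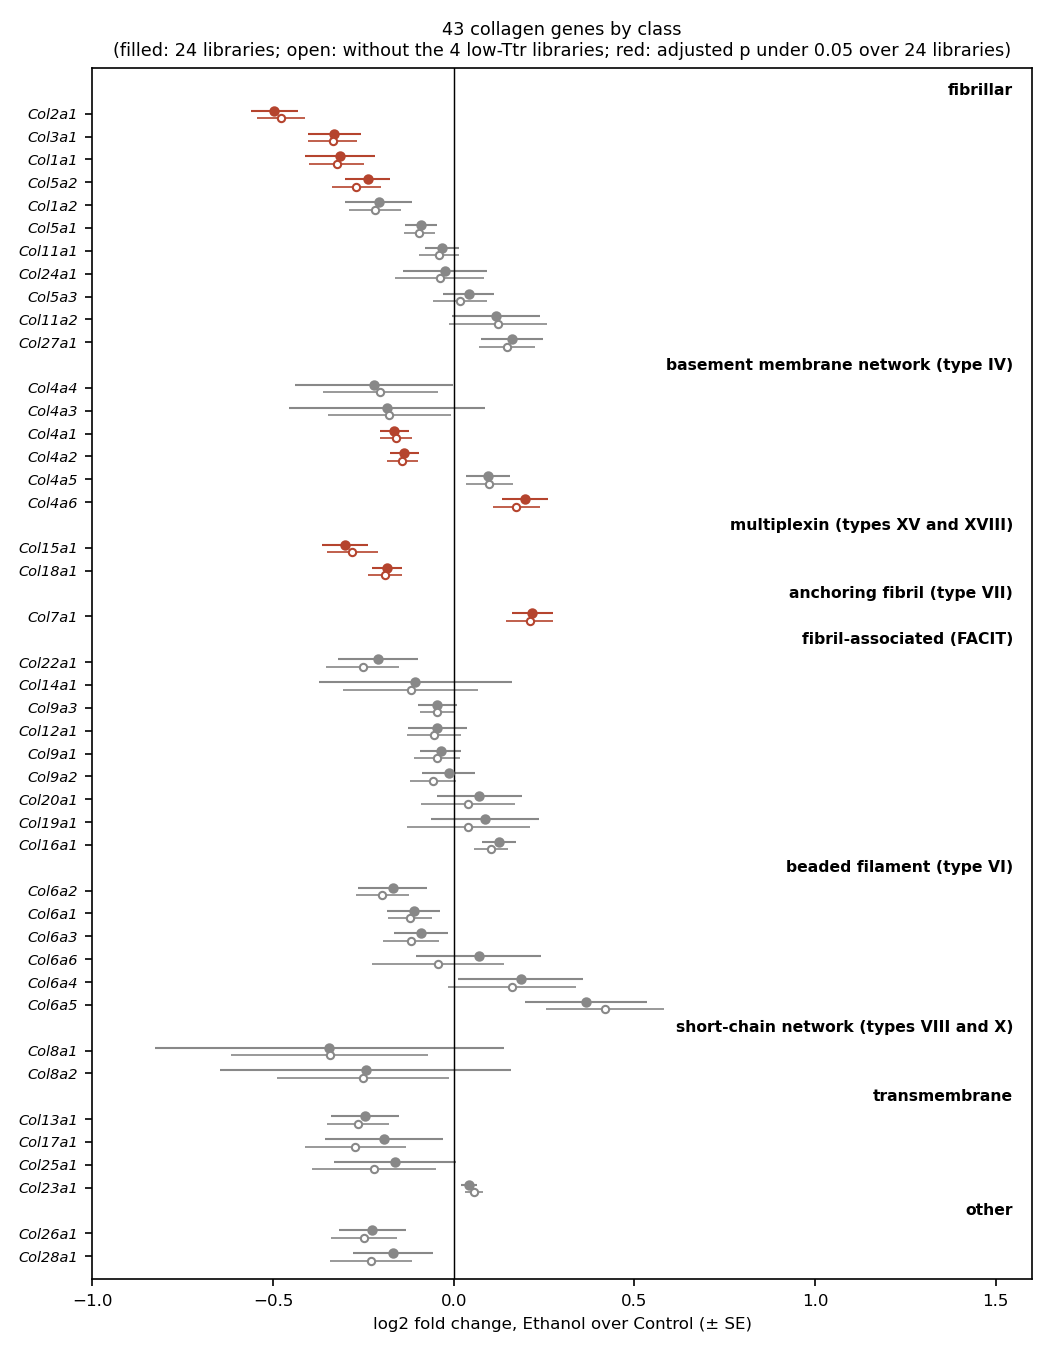
Log2 fold change of the 43 tested collagen genes, Ethanol over Control, with standard errors of the edgeR fit, grouped by class. Filled points are the fit over 24 libraries, open points the fit without the 4 low-Ttr libraries, and red marks adjusted p under 0.05 over 24 libraries. Red points lie left of 0 for 8 genes and right of it for Col7a1 and Col4a6, and the bars of Col8a1 and Col8a2 are the longest.

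Levels differed widely between collagen genes. Per kilobase (kb) of exon sequence, Col4a1 stood at 47.6 CPM per kb in Ethanol and 53.4 CPM per kb in Control animals. Col4a2 was next in Control animals, at 38.1 CPM per kb, against 34.7 CPM per kb in Ethanol. Col9a3 followed in Control animals at 36.2 CPM per kb, but at 35.1 CPM per kb in Ethanol it lay above Col4a2. In Control animals the order went on with Col3a1, Col1a1, Col18a1 and Col1a2. Col3a1 stood at 25.8 CPM per kb in Ethanol and 32.4 CPM per kb in Control, and Col1a2 at 16.1 CPM per kb in Ethanol and 18.6 CPM per kb in Control. Col4a1, Col4a2, Col3a1 and Col1a2 together held 46.1% of all collagen CPM in Ethanol and 47.5% in Control animals. At the low end, 18 genes averaged under 10 CPM in Control animals. No gene called lower had a Control mean under 40 CPM.

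Col2a1, the main fibrillar chain of cartilage, was the collagen gene with the smallest p-value. It measured 40.4 to 64.5 CPM (median 52.3) in Ethanol animals, against 66.1 to 83.7 CPM (median 72.0) in Control animals. Every Ethanol animal lay below every Control animal. It was the only collagen gene whose groups did not overlap. Among all genes tested, 0.0507% had every Ethanol library below every Control library and 0.124% had every one above. The log2 fold change was -0.50 (SE 0.066, adjusted p = 4.05e-05 by edgeR), or 0.709-fold, and it was -0.48 (adjusted p = 0.000209) without the low-Ttr libraries. Ethanol means were below Control means in all 6 runs.

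Cartilage and bone markers were scarce in these libraries. Their 11 genes summed to 15.0 to 23.96 CPM in Ethanol and 17.4 to 27.9 CPM in Control animals. All 12 Ethanol animals lay below the Control median of 24.07 CPM, though the ranges overlapped. Of the 11 genes, 7, among them Matn1, Comp and Ibsp, averaged under 1 CPM. Of 6 that could be tested, Runx2, an early regulator of bone-forming cells, was lower (log2 fold change -0.40, adjusted p = 0.0266 by edgeR, and 0.0733 without the low-Ttr libraries). Col2a1 averaged 1.06 times as much in the 4 low-Ttr libraries as in the other 20. The part of cartilage-derived RNA in the Col2a1 difference was not tested.

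The fibrillar chains of types I, III and V, which build the collagen fibrils of meninges and vessel walls, were lower for 3 of their 6 genes. Col3a1, the single chain of type III collagen, measured 187 to 300.5 CPM (median 256) in Ethanol animals, against 247.5 to 369 CPM (median 329) in Control animals. Col1a1, a chain of the type I helix, measured 75.0 to 139.7 CPM (median 119) in Ethanol, against 102 to 171.5 CPM (median 148.5) in Control. Col5a2, a chain of the type V collagen that starts fibril assembly, measured 44.7 to 61.9 CPM (median 54.4) in Ethanol, against 51.8 to 73.8 CPM (median 65.2) in Control. In each of the 3 genes the groups overlapped, and 5, 2 and 4 Ethanol animals lay below the lowest Control animal for Col3a1, Col1a1 and Col5a2.

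By edgeR the log2 fold change of Col3a1 was -0.33 (SE 0.074, adjusted p = 0.00356). That of Col1a1 was -0.32 (SE 0.096, adjusted p = 0.0284) and that of Col5a2 was -0.24 (SE 0.062, adjusted p = 0.0103). All 3 kept a passing p-value without the low-Ttr libraries, at 0.00288, 0.00986 and 0.0144 in the same order. Run 1, the 4 animals with the lowest numbers, showed the largest differences of the 6 runs for Col1a1 and Col3a1, at -0.85 and -0.75 on the log2 scale. In run 6 the differences were positive, at 0.096 for Col1a1, 0.028 for Col3a1 and 0.082 for Col5a2. Col1a1 lost the call without run 1 (-0.22, adjusted p = 0.135), run 2 (-0.30, adjusted p = 0.0881) or run 4 (-0.29, adjusted p = 0.120). Col5a2 lost it without run 1 (-0.22, adjusted p = 0.0595) or run 2 (-0.22, adjusted p = 0.0562), and Col3a1 in no such fit.

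Col1a2, the partner chain of Col1a1, did not pass. It measured 139 to 241 CPM (median 199.5) in Ethanol, against 164 to 268.5 CPM (median 241) in Control animals, with a log2 fold change of -0.21 (95% interval -0.40 to -0.02, adjusted p = 0.133). Col5a1, at -0.09 (adjusted p = 0.189), and Col5a3, at 0.04 (adjusted p = 0.759), did not pass either. The type XI chains, Col11a1 at -0.03 and Col11a2 at 0.12, and the less studied fibrillar chains Col24a1 at -0.02 and Col27a1 at 0.16 had adjusted p-values between 0.223 and 0.919.

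**Figure D2:**
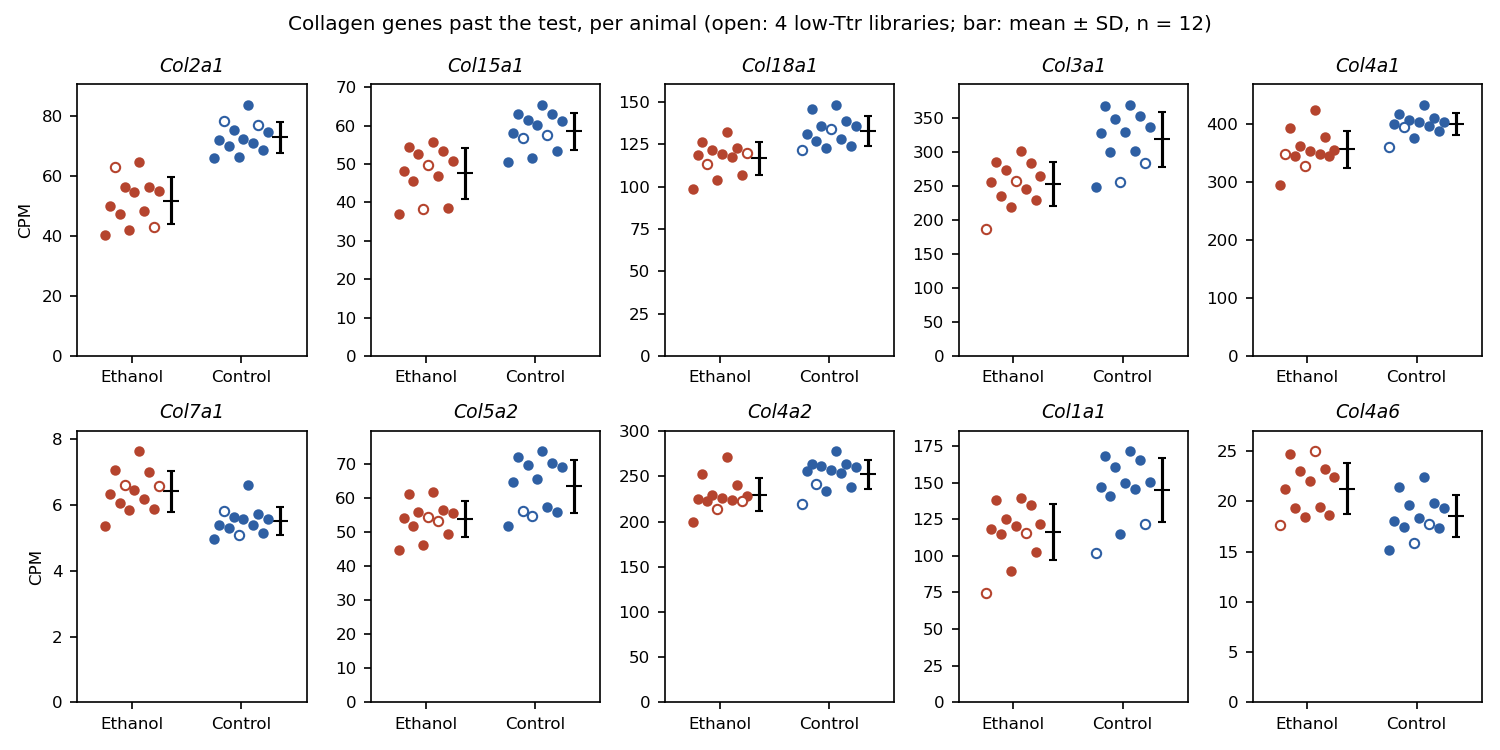
CPM of the 10 called collagen genes in each animal, 12 Ethanol points left of 12 Control points in each panel, with the group mean and SD. Low-Ttr libraries are drawn as open points. Only in Col2a1 do the groups not overlap, with Ethanol animals at 40.4 to 64.5 CPM and Control animals at 66.1 to 83.7 CPM.

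Type IV collagen genes moved in both directions. Their 6 genes lie in head-to-head pairs, and the called ones fall into the Col4a1 and Col4a2 pair on chromosome 8 and the Col4a5 and Col4a6 pair on chromosome X. RefSeq start regions of these 4 genes are shown because each pair is transcribed on opposite strands from neighbouring starts. They run from 250 bases before to 50 after each gene's start, 5′ to 3′ on the gene's own strand, in build GRCm38.p6. Capitals mark CCAAT or its complement ATTGG and GGGCGG or its complement CCGCCC.
Col4a1, chr8:11312777-11313076, minus strand: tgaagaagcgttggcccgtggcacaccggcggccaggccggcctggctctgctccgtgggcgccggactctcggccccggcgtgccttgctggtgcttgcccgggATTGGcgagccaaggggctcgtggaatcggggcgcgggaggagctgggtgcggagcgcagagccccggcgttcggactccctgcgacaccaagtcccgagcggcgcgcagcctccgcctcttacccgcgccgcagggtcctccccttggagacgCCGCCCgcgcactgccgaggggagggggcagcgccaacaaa
Col4a2, chr8:11312555-11312854, plus strand: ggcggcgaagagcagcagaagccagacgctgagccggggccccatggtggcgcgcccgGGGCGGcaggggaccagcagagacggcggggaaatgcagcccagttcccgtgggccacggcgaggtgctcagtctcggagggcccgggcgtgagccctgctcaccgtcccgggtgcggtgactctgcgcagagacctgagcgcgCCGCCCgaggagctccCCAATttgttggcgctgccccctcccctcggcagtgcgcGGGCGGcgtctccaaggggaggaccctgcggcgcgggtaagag
Col4a5, chrX:141475169-141475468, plus strand: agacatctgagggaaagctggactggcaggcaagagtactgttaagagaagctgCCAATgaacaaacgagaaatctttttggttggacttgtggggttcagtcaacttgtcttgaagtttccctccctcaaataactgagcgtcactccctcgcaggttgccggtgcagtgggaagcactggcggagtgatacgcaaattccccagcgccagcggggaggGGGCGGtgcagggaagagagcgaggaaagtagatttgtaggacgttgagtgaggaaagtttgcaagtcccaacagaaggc
Col4a6, chrX:141474027-141474326, minus strand: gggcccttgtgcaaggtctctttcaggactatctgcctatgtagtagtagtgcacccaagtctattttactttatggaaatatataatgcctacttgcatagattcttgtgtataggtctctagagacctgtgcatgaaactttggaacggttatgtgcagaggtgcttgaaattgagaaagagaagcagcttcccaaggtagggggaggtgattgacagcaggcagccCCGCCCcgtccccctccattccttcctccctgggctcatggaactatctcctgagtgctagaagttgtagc

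The Col4a1 and Col4a2 regions share 78 bases on opposite strands, and exons of this pair overlap by 22 bases. The starts of Col4a5 and Col4a6 are 1343 bases apart. GC content was 74.0% for Col4a1 and 73.7% for Col4a2, against 52.7% for Col4a5 and 48.3% for Col4a6. CCAAT was found once each in Col4a1, Col4a2 and Col4a5 and not in Col4a6. GGGCGG was found 3 times in Col4a2 and once in each of the other regions, no match overlapped another within a region, and TATAAA was found in none of the 4. RefSeq regions were at hand for 35 of the 44 collagen genes, in 38 regions, of which 34.2% held CCAAT, 60.5% GGGCGG and 13.2% TATAAA on either strand, against 37.4%, 35.7% and 13.6% of all 32851 regions of that length. The GGGCGG match of Col4a1 lies in the shared bases and is the same genomic site as 1 of the 3 in Col4a2. A match to these letters is a description of the sequence only.

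Col4a1 and Col4a2, whose products wind together into the common type IV helix of vessel basement membranes, were both lower. Col4a1 measured 295 to 423 CPM (median 351) in Ethanol animals, against 359.7 to 433 CPM (median 401) in Control animals. Col4a2 measured 199.6 to 272 CPM (median 225.5) in Ethanol, against 220.0 to 278 CPM (median 257) in Control. Groups overlapped in both, with 8 Ethanol animals below the lowest Control animal for Col4a1 and 2 for Col4a2. The log2 fold changes were -0.16 for Col4a1 (SE 0.040, adjusted p = 0.00636 by edgeR) and -0.14 for Col4a2 (SE 0.040, adjusted p = 0.0211). Both passed without the low-Ttr libraries (0.0216 and 0.0322). Col4a1 lost the call only without run 1 (-0.14, adjusted p = 0.0538). Col4a2 lost it without run 1 (-0.11, adjusted p = 0.132), run 2 (-0.12, adjusted p = 0.0514), run 3 (-0.13, adjusted p = 0.0584) or run 4 (-0.13, adjusted p = 0.0828).

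On chromosome X the values ran the other way. Col4a6, found in basement membranes of smooth muscle and some epithelia, measured 17.7 to 25 CPM (median 21.7) in Ethanol animals, against 15.2 to 22.4 CPM (median 18.2) in Control animals. Groups overlapped, with 4 Ethanol animals above the highest Control animal, and Ethanol means were higher in all 6 runs. The log2 fold change was 0.20 (SE 0.064, adjusted p = 0.0373 by edgeR). That call changed with the settings. With runs as a block adjusted p was 0.00200, and 0.00958 with the low-Ttr libraries also left out. Without the block it was 0.0934 with these libraries left out, 0.0613 with upper-quartile scaling, and the call was kept in only 8 of 24 fits that left out 1 animal, those without Control X4570, X4571 or X4679 or Ethanol X4673, X4692, X4694, X4758 or X4766. Col4a5, which pairs with Col4a6 or with Col4a3 and Col4a4, had a log2 fold change of 0.09 (adjusted p = 0.314). Col4a3 and Col4a4 averaged 2.34 and 3.23 CPM in Ethanol animals, against 2.65 and 3.76 CPM in Control animals, and did not pass (adjusted p = 0.710 and 0.558).

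Both multiplexins, basement membrane collagens that carry sugar chains and release an endostatin domain, were lower. Col15a1 measured 36.9 to 55.8 CPM (median 48.9) in Ethanol animals, against 50.4 to 65.5 CPM (median 59.2) in Control animals. Col18a1 measured 98.7 to 132 CPM (median 119) in Ethanol, against 122 to 148 CPM (median 132) in Control. Groups overlapped in each, with 7 Ethanol animals for Col15a1 and 9 for Col18a1 below the lowest Control animal. The log2 fold change was -0.30 for Col15a1 (SE 0.064, adjusted p = 0.00239 by edgeR) and -0.19 for Col18a1 (SE 0.042, adjusted p = 0.00326). Ethanol means were lower in all 6 runs for both genes, as for Col2a1 and for no other gene called lower. The sizes differed. For Col15a1 the log2 difference was -0.695 in run 1 but only -0.0427 in run 5 and -0.0661 in run 6. It lay between -0.276 and -0.101 for Col18a1 and between -0.715 and -0.292 for Col2a1. The low-Ttr libraries left out, both passed (adjusted p = 0.0135 for Col15a1 and 0.0125 for Col18a1).

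Col7a1, the chain of the anchoring fibrils that tie epithelial basement membrane to the tissue below it in skin, was higher at a low level. It measured 5.37 to 7.65 CPM (median 6.41) in Ethanol animals, against 4.98 to 6.61 CPM (median 5.49) in Control animals. The groups overlapped, and 3 Ethanol animals lay above the highest Control animal. The log2 fold change was 0.22 (SE 0.056, adjusted p = 0.00967 by edgeR), and it was 0.21 (adjusted p = 0.0405) without the low-Ttr libraries. Ethanol means were higher in all 6 runs.

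**Figure D3:**
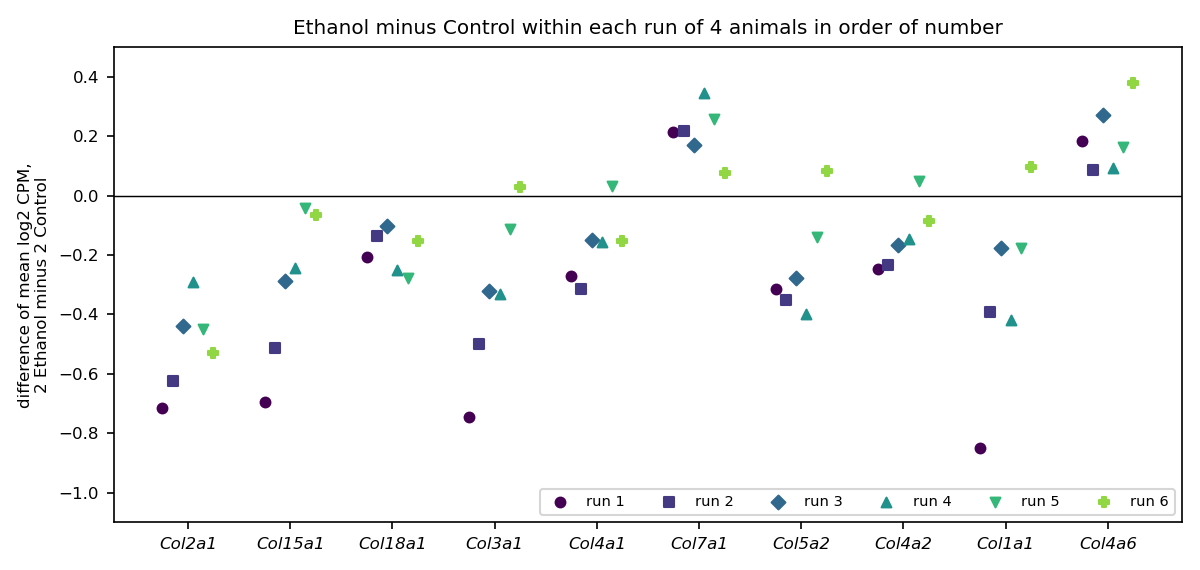
Difference of mean log2 CPM, Ethanol minus Control, within each of the 6 runs of 4 animals, for the 10 called collagen genes. Of the 8 lower genes, Col2a1, Col15a1 and Col18a1 lie below 0 in all 6 runs and the other 5 in 5 of 6, and Col7a1 and Col4a6 lie above 0 in all 6.

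None of the 9 fibril-associated collagens passed. These chains, whose helix is interrupted, bind to fibril surfaces and link them to other matrix. The most abundant per kilobase, Col9a3, measured 115 to 155 CPM (median 133) in Ethanol animals, against 116.5 to 156.5 CPM (median 136) in Control animals, with a log2 fold change of -0.05 (95% interval -0.16 to 0.07, adjusted p = 0.640). Part of its exon sequence (6.07%) lies opposite Tcfl5, and the strand setting of the counting is not given. Closest to passing in the class was Col16a1, at 0.12 (95% interval 0.03 to 0.22, adjusted p = 0.0764), with Ethanol means higher in all 6 runs. Col12a1, at -0.05, and Col22a1, at -0.21, had adjusted p = 0.768 and 0.213.

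Type VI collagen, a filament of beaded units around cells, also gave no call among 6 genes. Its 3 abundant chains were Col6a1 at -0.11 (adjusted p = 0.348), Col6a2 at -0.17 (adjusted p = 0.247) and Col6a3 at -0.09 (adjusted p = 0.460) on the log2 scale. The intervals reached from -0.27 to 0.04, from -0.36 to 0.03 and from -0.25 to 0.06, so a decrease of the size seen in Col4a1 was not excluded for any of them. Col6a4, Col6a5 and Col6a6 averaged between 0.770 and 1.98 CPM in Ethanol and between 0.596 and 1.74 CPM in Control animals.

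Of the 4 transmembrane collagens, which are anchored in the membrane and shed, Col13a1 came closest to passing. It measured 2.96 to 5.69 CPM (median 4.05) in Ethanol animals, against 3.39 to 5.98 CPM (median 5.24) in Control animals. The log2 fold change was -0.25 (SE 0.094, adjusted p = 0.0766 by edgeR) over 24 libraries and -0.26 (adjusted p = 0.0480) without the low-Ttr ones. With runs as a block it passed in both (adjusted p = 0.0350 and 0.0379). Col23a1 measured 85.0 to 94.2 CPM in Ethanol and 81.3 to 95.0 CPM in Control animals, groups that overlapped, with an interval of the log2 fold change from -0.01 to 0.09. Col17a1 and Col25a1 had adjusted p = 0.475 and 0.574. Outside these classes, Col26a1 was at -0.23 (adjusted p = 0.105, 0.0179 with runs as a block, and 0.0611 with the block and without the low-Ttr libraries) and Col28a1 at -0.17 (adjusted p = 0.334).

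Type VIII collagen genes varied widely between animals of both groups. Col8a1, a short chain that forms hexagonal networks in cornea and vessel walls, measured 0.857 to 34.8 CPM (median 16.85) in Ethanol and 1.54 to 35.4 CPM (median 26.6) in Control animals. Col8a2 measured 2.27 to 34.9 CPM (median 17.4) in Ethanol and 2.48 to 34.8 CPM (median 21.9) in Control animals. Both ranges overlapped almost fully, and the log2 fold changes of -0.34 and -0.24 had adjusted p = 0.697 and 0.748 with intervals from -1.35 to 0.66 and from -1.08 to 0.59.

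The low values of type VIII lay in the 4 low-Ttr libraries. Col8a1 stood at 0.857 to 2.03 CPM there, against 5.83 to 35.4 CPM in the other 20, and Col8a2 stood at 2.27 to 3.6 CPM, against 7.56 to 34.9 CPM. Neither pair of ranges overlapped. The same libraries had 0.305 times the Col4a3 level of the others, 0.339 times the Col14a1 level and 0.420 times the Col4a4 level. Among fibrillar chains, Col1a2 stood at 0.744, Col1a1 at 0.761 and Col3a1 at 0.837 times the others. Col2a1 stood at 1.06 times. Col4a1 and Col18a1 stood at 0.938 and 0.976 times, and Col7a1 at 1.01 times. Meningeal and perivascular fibroblast markers summed to 673 to 1013 CPM there and to 915 to 1658 CPM in the other 20, ranges that overlapped. Choroid plexus epithelium markers summed to 35.6 to 54.7 CPM in these 4 libraries and to 378 to 5431 CPM in the other 20, and none of the 12 passed the test between Ethanol and Control animals. Since these 4 libraries were set apart by Ttr, the values are a description with no test, and the cell source of type VIII transcripts was not tested.

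**Figure D4:**
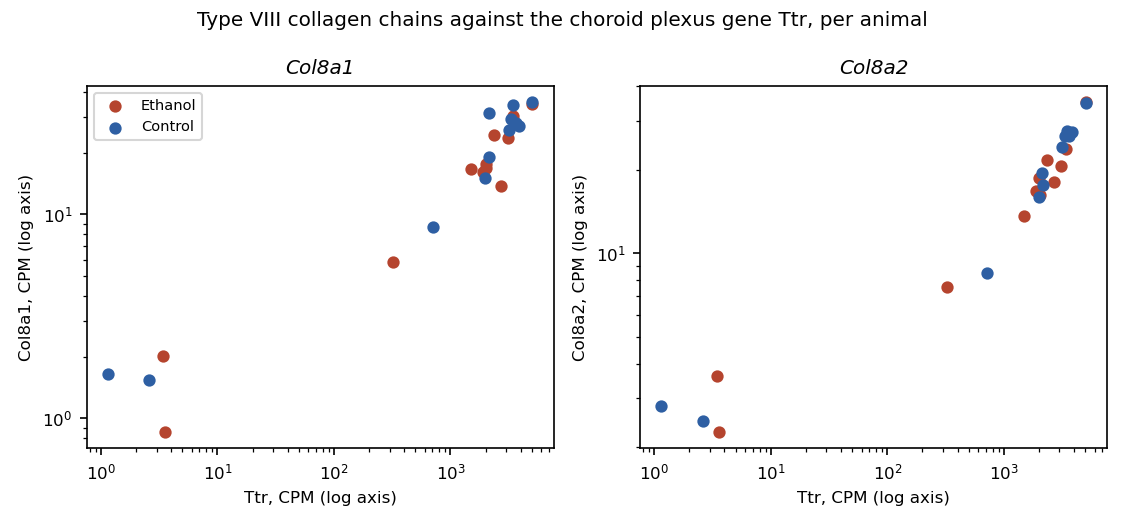
Col8a1 and Col8a2 CPM against Ttr CPM in the 24 libraries, on log axes, Ethanol and Control animals in separate colours. The 4 libraries with Ttr at 1.15 to 3.57 CPM hold the lowest values of both genes, at most 2.03 CPM for Col8a1 and 3.6 CPM for Col8a2.

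Chains of 1 collagen type, and Col3a1 with Col1a1, which meet in mixed fibrils but not in 1 helix, were then compared as log2 ratios within each animal, in 13 pairs, by a two-sided permutation test with Benjamini-Hochberg adjustment over the pairs. No pair passed, and 4 were at unadjusted p under 0.05. The Col1a1 to Col1a2 ratio averaged -0.78 ± 0.11 in Ethanol and -0.67 ± 0.06 in Control animals (SD, n = 12 each), a difference of -0.11 seen in all 6 runs (adjusted p = 0.0615 by permutation). The Col5a1 to Col5a2 ratio was higher by 0.14 (adjusted p = 0.0773) and the Col4a5 to Col4a6 ratio lower (-0.11, adjusted p = 0.0857). When labels were permuted within runs, these 3 passed, with adjusted p = 0.00533, 0.0409 and 0.0409. The Col4a1 to Col4a2 ratio differed by only -0.03 (adjusted p = 0.0857, and 0.0781 within runs).

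The genes that make, trim, bind and break down collagen were taken from 7 lists of 93 genes, of which 90 were tested, 7 were higher and 12 lower in Ethanol animals, where 9.07% of all genes were higher and 5.80% lower. Chain-modifying and folding genes gave 2 higher and none lower of 18. Plod3, a lysyl hydroxylase that also glycosylates collagen, measured 55.2 to 65.3 CPM (median 58.6) in Ethanol, against 48.6 to 57.6 CPM (median 53.95) in Control animals. Its log2 fold change was 0.14 (adjusted p = 0.00291 by edgeR), with groups overlapping and 8 Ethanol animals above the highest Control animal. P3h3, a prolyl hydroxylase family member, was at 0.09 (adjusted p = 0.0446, and 0.163 without the low-Ttr libraries). Serpinh1, the collagen chaperone HSP47, averaged 189 ± 12.9 CPM in Ethanol and 196.5 ± 18.1 CPM in Control animals (SD, n = 12 each) and did not pass (adjusted p = 0.459 by edgeR).

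Among 7 genes of procollagen export, Sec24d, a cargo adaptor of the vesicle coat, was lower. It measured 18.3 to 25.4 CPM (median 22.9) in Ethanol, against 23.8 to 28.6 CPM (median 25.1) in Control animals, with 10 Ethanol animals below the lowest Control animal, and its log2 fold change was -0.19 (adjusted p = 0.0045 by edgeR). Of 13 cleavage and cross-linking genes only Loxl2, a lysyl oxidase of type IV collagen, was called, at -0.25 (adjusted p = 0.0216).

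Of 10 collagen receptors tested, 3 were lower and 2 higher. Itga1 and Itga2, the integrin subunits whose I domain binds collagen, and Itga11, another of that group, were lower, at -0.35 (adjusted p = 1.46e-05 by edgeR), -0.39 (adjusted p = 0.0101) and -0.21 (adjusted p = 0.0305, and 0.0813 without the low-Ttr libraries). Itga1 measured 16.7 to 22.6 CPM (median 20.2) in Ethanol, against 21.9 to 27.3 CPM (median 25.6) in Control animals. All but 1 of the Ethanol animals were below the lowest Control animal. Ddr1, a receptor tyrosine kinase for collagen carried by glia and epithelia, was higher at 0.11 (adjusted p = 0.0158, and 0.0553 without the low-Ttr libraries), and Lair1, an inhibitory receptor of immune cells, at 0.23 (adjusted p = 0.0202). The other 5 did not pass, among them the collagen-binding integrin subunit Itga10 (0.21, adjusted p = 0.405), its partner Itgb1 (-0.05, adjusted p = 0.298) and the kinase Ddr2 (0.19, adjusted p = 0.195).

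Degradation genes went both ways in 6 of 11 tested. Mmp14, a membrane-anchored collagenase, was higher at 0.11 (adjusted p = 0.0141 by edgeR), as were the inhibitors Timp1 at 0.36 (adjusted p = 0.0287) and Timp3 at 0.14 (adjusted p = 0.0489). The gelatinase Mmp2 was lower at -0.32 (adjusted p = 0.0357), with Mmp15 at -0.10 and Mmp16 at -0.13 (adjusted p = 0.0389 and 0.0455). Of these, Mmp14 alone passed in all 24 fits that left out 1 animal. Without the low-Ttr libraries Timp3, Mmp15 and Mmp16 did not pass (adjusted p = 0.134, 0.0772 and 0.162).

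Transcripts of proteins laid down beside collagen were lower where called. Of 15 basement membrane partners, Nid2, a linker of laminin and type IV collagen, was at -0.33 (adjusted p = 0.0120 by edgeR) and Lamb1, a laminin chain, at -0.15 (adjusted p = 0.0236). Of 16 fibrillar partners, Eln, elastin, was at -0.20 (adjusted p = 0.0153). Lum, lumican, a proteoglycan that spaces fibrils, measured 5.09 to 12.25 CPM (median 8.14) in Ethanol, against 8.82 to 18.7 CPM (median 14.01) in Control animals, with 7 Ethanol animals below the lowest Control animal, and its log2 fold change was -0.65 (SE 0.14, adjusted p = 0.00274). Over the 90 genes, 12 of the 19 calls were made in every fit that left out 1 animal. The other 7 (P3h3, Timp1, Timp3, Mmp2, Mmp15, Mmp16 and Itga11) lost the call in at least 1, with adjusted p up to 0.110. Without the low-Ttr libraries, 4 of the 90 were higher and 12 lower. With runs as a block, 8 of the 90 were higher and 16 lower, where 1982 of all 17736 genes were higher and 1363 lower.

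Markers of vessel cells and fibroblasts were counted beside the 5.80% of all genes called lower and the 9.07% called higher. Endothelial markers were lower for 7 of 14 (Eng, Erg, Tie1, Cdh5, Tek, Pecam1 and Kdr) and higher for Ly6c1, and they summed to 442 to 504 CPM in Ethanol and 498 to 570 CPM in Control animals. Pericyte and smooth muscle markers were lower for 3 of 13 tested (Rgs5, Notch3 and Acta2), summing to 431 to 514 CPM in Ethanol and 496 to 548 CPM in Control animals. Meningeal and perivascular fibroblast markers were lower for 1 of 18, Lum, which is also among the fibrillar partners above. They summed to 901 to 1658 CPM in Ethanol and 673 to 1569 CPM in Control animals. Other cell types moved as well. Purkinje cell markers were lower for 3 of 8. Astrocyte and Bergmann glia markers were higher for 3 of 8 and lower for 1, and oligodendrocyte precursor markers were higher for 3 of 8. Microglia and macrophage markers were higher for 3 of 10 and lower for 1, and granule neuron markers were higher for 1 of 10 and lower for 1. The summed astrocyte and Bergmann glia markers were above the Control median in all 12 Ethanol animals. The part of any of these cells in the collagen differences was not tested.

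Collagen levels were also compared with marker levels from animal to animal within groups. Mean z-scores of log2 CPM were taken per animal, group means were removed, and 4 relations were computed, 3 over 24 animals and 1 over 20, with permutation p-values adjusted over the 4. Col1a1, Col1a2 and Col3a1 followed the fibroblast markers (r = 0.827, adjusted p = 8e-05, rho = 0.672, adjusted p = 0.00204, by permutation). Without the 2 animals farthest from the median r was 0.744, it was 0.718 (adjusted p = 0.0112) without the 4 low-Ttr libraries, and 0.845 with run means removed. By group, r was 0.658 among Ethanol and 0.968 among Control animals, a difference that was not tested. Col4a1 and Col4a2 followed pericyte and smooth muscle markers (r = 0.682, adjusted p = 0.00114, rho = 0.647, adjusted p = 0.00204, by permutation), with r at 0.466 without the 2 farthest animals, 0.588 without the low-Ttr libraries and 0.667 with run means removed.

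Their relation with endothelial markers depended on the libraries and the measure (r = 0.443, adjusted p = 0.0461, rho = 0.385, adjusted p = 0.0910, by permutation). It was 0.482 without the 2 farthest animals and 0.578 with run means removed (adjusted p = 0.00635), and it did not pass without the low-Ttr libraries (r = 0.296, adjusted p = 0.308). All collagen genes together showed no detectable relation with choroid plexus markers over the 20 other libraries (r = 0.149, rho = -0.0436, adjusted p = 0.543 and 0.862 by permutation, r = 0.0121 without the 2 farthest). The pooled value joins r = -0.244 among Ethanol and r = 0.643 among Control animals, a difference that was not tested. Over all collagen genes, the low-Ttr libraries, left out here, had the lowest mean z-scores before group means were removed. These were -1.12 to -0.718, against at least -0.447 in the other 20. Summed collagen CPM overlapped, at 1931 to 2273 in the low-Ttr libraries and 2096 to 2767 in the other 20. A relation of all collagen genes with choroid plexus markers over all libraries was not tested. Points within a plot share library preparation and scaling, and a relation within groups does not bear on the difference between them.

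**Figure D5:**
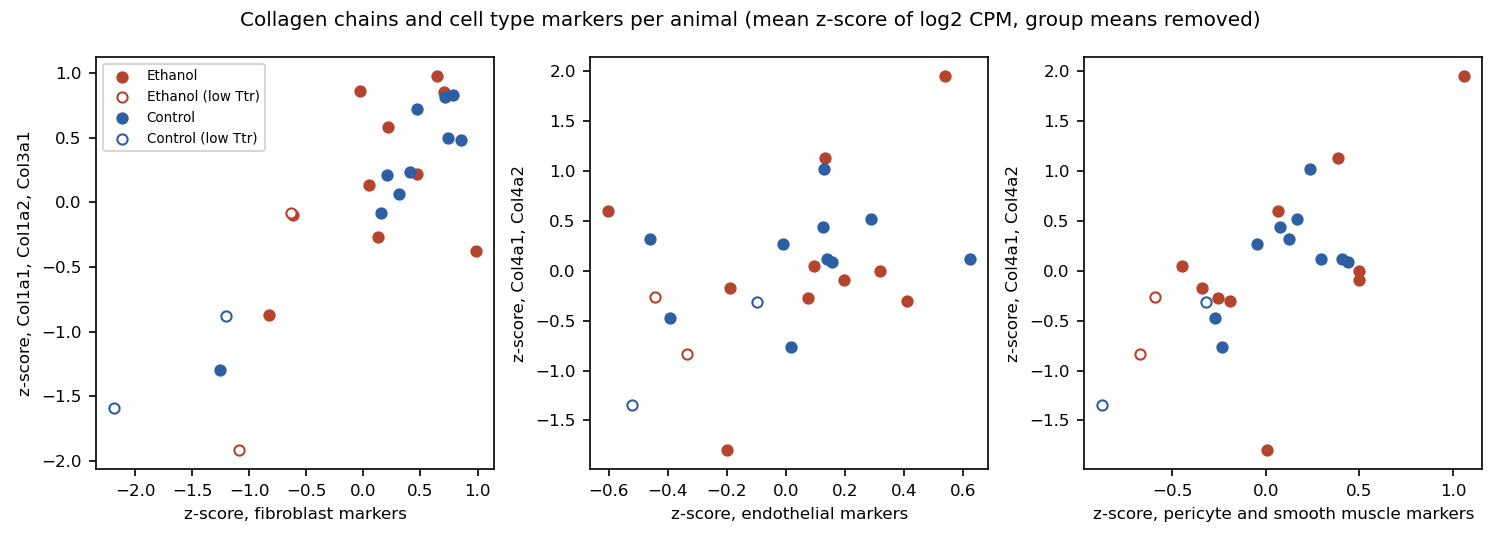
Mean z-score of collagen genes against mean z-score of marker genes per animal, group means removed, Ethanol and Control animals in separate colours, low-Ttr libraries as open points. Points rise together in the fibroblast panel (r = 0.827) and the pericyte and smooth muscle panel (r = 0.682), and spread more in the endothelium panel (r = 0.443).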

How the data were processed

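Poly(A) RNA of 24 animals was sequenced from TruSeq mRNA libraries. The authors ran nf-core/rnaseq and deposited estimated counts for 55416 gene rows. STAR, Salmon, limma and the GRCm39 build appear, with no version, in the submitters' processing notes. The annotation release and whether counting used strand are not given in the sources read. Counts were rounded before testing, since 10.9% of values lay over 0.01 away from a whole number.

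Groups came from the labels (12 Ethanol, 12 Control, 1 library per animal). With 276 pairs of libraries compared, the lowest mean chi-square per gene was 4.95, where sampling noise gives 1, so no library was a copy of another. Genes were filtered with filterByExpr, scaled by TMM and tested in R 4.3.3 with edgeR 4.0.16 (robust glmQLFit, then glmQLFTest, leaving 22 residual degrees of freedom), adjusted p under 0.05 over all genes. The test was checked on simulated counts. Standard errors came from the F statistic. CPM values use TMM library sizes. Chain ratios used log2(CPM + 0.5) and two-sided permutation tests (100000 resamples). These ran in Python 3.11.15 (scipy 1.17.1, numpy 2.4.6, pandas 2.3.3). Exon lengths came from GENCODE annotation of GRCm38, another build than that of the counts. Plots used matplotlib 3.10.9.

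Members and gene lists were chosen with earlier results of these data known. Named genes were every called member, the abundant or low members of each class, and each called gene of the pathway lists. Alternatives were limma 3.58.1 (trend and voom), DESeq2 1.42.0, RLE and upper-quartile scaling, no filter, a filter of 1 CPM in 12 libraries, runs as a block, and leaving out animals, runs or the libraries with Ttr under 20 CPM. The fit that joins the last of these with the run block was added after seeing the data.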

Additional observations from a re-analysis of the deposited data

How the results depend on the processing

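The count of collagen genes called lower was 8 in the main analysis and stayed between 7 and 10 under every other tool, scaling, filter and run block. It was 4 without run 1, where Col1a1, Col4a1, Col4a2 and Col5a2 no longer passed, 6 to 10 without any other run, and 8 to 9 when single animals were left out. Over all genes, calls lower numbered 1028 in the main analysis and 616 without run 1. They numbered 499 to 915 without any other run and 805 to 1438 without single animals. The count of collagen genes called higher fell to 1 without the 4 low-Ttr libraries, with upper-quartile scaling and without each of runs 2 to 6, and was 1 to 2 without single animals. Pathway genes called lower numbered 12, 5 without run 1, 6 without run 4, and 9 to 20 without single animals (20 without Control X4768). Those called higher numbered 7, 4 without the low-Ttr libraries, 2, 3 and 4 without runs 1, 2 and 4, and 4 to 7 without single animals. Over all genes, 1608 were called higher in the main analysis, 1206 without the low-Ttr libraries and 1103 to 1487 without single runs. The causes were not tested.

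Chain pairs past the test numbered 3 with run means removed and 0 otherwise. The relation of Col4a1 and Col4a2 with endothelial markers was 0.296 without the low-Ttr libraries, and that of all collagen genes with choroid plexus markers turned to -0.0903 with run and group means removed. Signs also turned for Col9a3 (0.0155 without run 1) and, without the low-Ttr libraries, for the Col9a1 to Col9a2 (0.0121) and Col9a3 to Col9a2 (0.00826) ratios. Over all genes, upper-quartile scaling called 1373 higher and 1396 lower, against 1608 and 1028 with TMM, and no scaling moved the median of all genes by over 0.1.

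No paired analysis was possible because the groups share no replicate numbers in the labels. Runs of 4 animals served as a block instead, which called 10 collagen genes lower and 2 higher. That fit called 1363 of all 17736 genes lower and 1982 higher, against 1028 and 1608 without the block. Intervals were wide for Col6a5 and Col19a1, which averaged under 1 CPM, and the part of depth in this was not tested. Without the run block, permutation and edgeR p-values took the animals as independent, with the age, dosing schedule, sex and litter of each unknown. By the study's methods each litter gave a male and a female of each treatment.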
